A study of Mus musculus with 104 samples.

Results

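RNA was sequenced from 8 mock-transfected cultures of primary mouse hepatocytes (PMH), the main cell type of the liver, isolated from animals and plated without being made into a line. They are the 8 of 104 libraries that carry the treatment label mock, and nothing measured was used to choose them. The other 96 libraries came from the same kind of culture transfected with 1 of 6 siRNAs (D1 to D3 against Hao1, D4 to D6 against Ttr) at 1 of 4 doses, with 4 libraries for each siRNA and dose. D1 and D4 are the parent duplexes, and in the other 4 a single nucleotide of the guide was replaced by a glycol nucleic acid (GNA) nucleotide. The comparisons below use the mock libraries and the 24 siRNA libraries at 0.1 nM or the 24 at 50 nM. All cultures were grown in 384-well plates, and RNA was taken 24 h after transfection with Lipofectamine RNAiMax. The labels call the 8 libraries a mock transfection control without saying what replaced the siRNA. They give no strain, donor, lot, plate or well, so the 8 libraries may be wells of 1 cell preparation, and p-values measure only the spread between such samples, which may be technical. No fresh liver was sequenced, so a change on the way into culture cannot be tested with these data.

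Hepatocytes make most proteins of the blood plasma, clear ammonia through the urea cycle, keep blood glucose steady, make bile acids and inactivate drugs with cytochrome P450 enzymes. When they are plated, they are known to lose many of these functions within days while they spread, build actin and keratin fibres and lay down matrix, a course called dedifferentiation. The sections below follow these functions, then the genes of culture and growth, and then the genes that differed most between the 8 libraries.

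The mock libraries held 3409963 to 5308584 counts on genes (median 4927571), and replicates 1 and 2 were the shallowest. Mitochondrially encoded genes took 2.98% to 3.34% of the counts. In the 96 siRNA libraries, totals lay between 3623954 and 6160626. In a chi-square test over genes, each of the 28 pairs of mock libraries differed beyond counting noise (1.67 to 5.86 per degree of freedom), so no pair was merged, which does not show that they came from separate cultures. Levels are given in CPM, counts scaled to the same library total. At this depth, 1 CPM is between 3.41 and 5.31 counts of a library, and levels near 1 CPM are imprecise.

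The mock cultures expressed a broad set of genes with no single dominating transcript. In all 8 libraries, 10962 genes reached at least 1 CPM, of which 10486 are protein-coding. The 20 most abundant genes together held 11.9% ± 0.552 of the counts (SD, n = 8), with single libraries between 10.97% and 12.6%, and 756 genes held 50% of them. By counts, without correction for length, clusterin (Clu, chromosome 14, 66190200 to 66218999, plus strand, GRCm39), a secreted chaperone, led with 15146 ± 724 CPM (SD, n = 8). Albumin (Alb, chromosome 5, 90608647 to 90624696, plus strand), the main plasma protein, followed with 13357.5 ± 579.6 CPM. Its 8 values lay between 12635 and 14440 CPM, and those of Clu between 14062 and 16231 CPM, so the ranges overlapped. Next to these liver products stood genes of the cell's fibres and matrix. Fibronectin (Fn1) had 8303 ± 844 CPM, keratin 18 (Krt18) 7066 ± 426, keratin 8 (Krt8) 5306 ± 348, beta-actin (Actb) 4616 ± 265 and nidogen (Nid1) 3877 ± 381. Transferrin (Trf), which carries iron in plasma, had 6231 ± 527 CPM, and apolipoprotein B (Apob), the backbone of lipoprotein particles, had 3136 ± 325 CPM. The list also held Sprr1a, a precursor of the cornified envelope of skin cells, at 3295 ± 332 CPM, and the ferritin heavy chain Fth1 at 3377 ± 236 CPM. The remaining members were mt-Co1, mt-Cytb, mt-Nd1 and mt-Nd5 of the respiratory chain, Eef1a1 and Eef2 of translation, Anxa2, Hsp90ab1 and the ribosomal RNA copy Rn18s-rs5. The last of these was by far the least stable, at 10029 ± 4358 CPM, while Hsp90ab1 held the narrowest range, from 2796 to 3003 CPM.

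**Figure D1:**
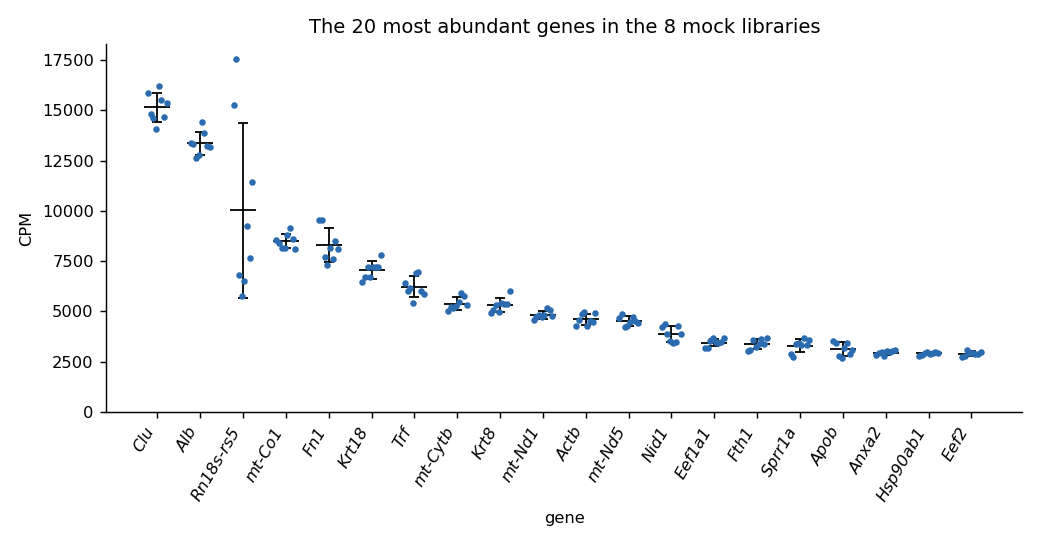
Level (CPM) of the 20 most abundant genes, on a linear axis from 0. Each point is 1 of the 8 mock libraries in replicate order, and bars give the mean and SD. Rn18s-rs5 spans 5782 to 17557 CPM, whereas Clu spans 14062 to 16231 CPM.

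Levels of different genes were compared per kilobase of merged exons (CPM per kb). On this scale, mt-Co1 was first (5499.8 CPM per kb), Rn18s-rs5 next (5424), and Krt18 (4917) stood ahead of Krt8, Clu (2689) and Alb (2618). The order of Clu, Alb and the keratins depended on the length used. Per kilobase of the canonical transcript, Clu (8340) and Alb (6545) led, and Krt18, whose annotated exons are the same on both scales, stayed at 4917.

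The labelled cell type was checked with 15 hepatocyte markers and with markers of 7 other cell classes. Of these, 10 hepatocyte markers lay at 100 CPM or more, among them Alb, Trf, Fgb (1921 ± 400.2 CPM), Apoa1 (781 ± 72.1), Ttr (662 ± 53.7) and the transcription factor Hnf4a (250.3 ± 23.4 CPM). The other members did not follow them. Cyp2e1, a drug-metabolising P450 of the pericentral liver, had 35.7 ± 5.2 CPM, the urea cycle enzyme Cps1 4.88 ± 1.06, the asialoglycoprotein receptor subunit Asgr1 3.36 ± 0.927 and the bile acid importer Slc10a1 1.65 ± 0.743 CPM. The hepatocyte label thus held for the secreted products and for Hnf4a, and Cps1, Asgr1 and Slc10a1 were under 5 CPM.

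Markers of other liver cells were mostly absent. Of 17 macrophage and Kupffer cell markers, 10 had no count in any of the 8 libraries (Adgre1, Clec4f, Ptprc, Timd4, Vsig4, Marco, Cd5l, C1qa, C1qb and Tyrobp). Over the summed mock libraries, no count allows a level of up to 0.0808 CPM (3 counts over the group, counting error only). Only Cd14 (213 ± 14.9 CPM), a lipopolysaccharide co-receptor, and the lysosomal Cd68 (19.7 ± 2.78 CPM) passed 1 CPM in that list. The endothelial markers Cdh5, Kdr, Clec4g, Emcn and Tek had no count, and none of the 17 reached 10 CPM (Stab1 had 6.93 ± 1.67 CPM). The stellate cell and fibroblast markers Des, Pdgfrb, Colec11, Ngfr and Pth1r had no count either, Col1a1 had 0.522 ± 0.304 CPM, and only Ecm1 (323 ± 28.1 CPM) and Reln (19.7 ± 3.78 CPM) passed 1 CPM. Of 17 lymphocyte, 10 neutrophil and 8 erythroid markers in the files, Cd3e (2.18 ± 1.34 CPM) and Alas2 (6.7 ± 1.5 CPM) alone passed 1 CPM. The bile duct list was the exception. Of its 13 genes, 9 passed 1 CPM, led per kilobase by the tight-junction gene Cldn4 (162 ± 17.8 CPM) and by keratin 19 (Krt19, 114 ± 8.74 CPM), and Epcam was low at 1.70 ± 0.785 CPM. In bulk RNA, fewer cells of a type and less RNA per cell cannot be told apart.

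Genes of the sex chromosomes and of the sex-biased liver programme were also read. The Y-linked genes Ddx3y (112 ± 8.68 CPM), Eif2s3y (89.7 ± 7.94), Kdm5d (35.9 ± 4.01) and Uty (34.7 ± 4.49) were present in every mock library, and Xist, the RNA that coats an inactive X chromosome, had 0.0362 CPM, below the limit that no count allows. The strain and sex of the cells are not in the labels. Of 21 female-biased liver genes, 15 lay under 1 CPM and 7 had no count. Of 22 male-biased genes, 14 reached 1 CPM, led by the urinary protein Mup3 (537 ± 28.1 CPM), whereas Elovl3 (0.0984 CPM) and Hsd3b5 (0.0837 CPM) were near 0. The Mup genes are near-identical copies, and uniquely aligned reads may be split unevenly among them, so their single levels are uncertain.

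**Figure D2:**
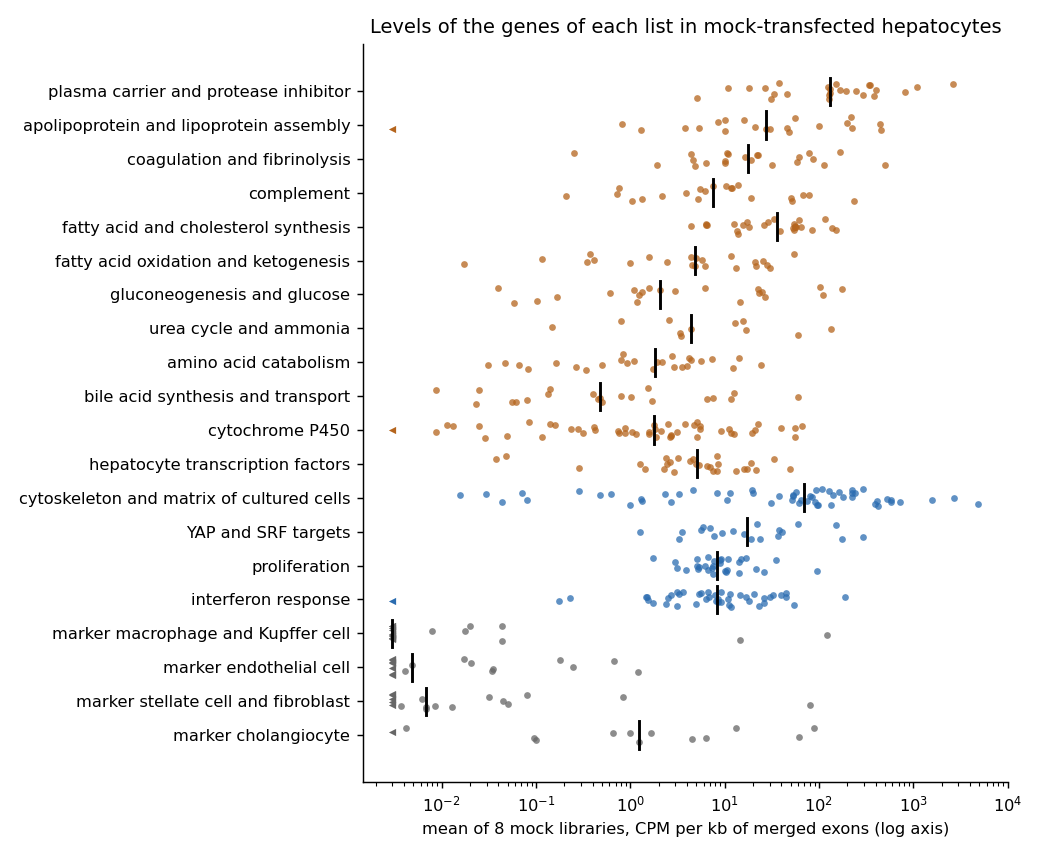
Mean level over the 8 mock libraries of each gene of 20 lists, in CPM per kb of merged exons on a log axis. Each point is a gene, triangles at the left edge are genes below the axis (no count, or under 0.003), and black bars are list medians. Orange lists are liver functions, blue lists culture, growth and interferon genes, and grey lists markers of other cells. Plasma protein and cytoskeleton genes sit to the right, and macrophage, endothelial and stellate markers to the left, apart from a few genes such as Cd14 and Ecm1.

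Secreted liver proteins made up the largest of the liver functions. The 25 plasma carriers and protease inhibitors held 3.34% ± 0.200 of the counts (SD, n = 8), and all 25 lay at 10 CPM or more. After Alb and Trf, the highest per kilobase were the haem scavenger hemopexin (Hpx, 1215 ± 130 CPM), the protease inhibitor Serpina3k (2218 ± 82.4 CPM) and the vitamin D carrier Gc (1956 ± 75.9 CPM). Serpina3k and the Serpina1 genes belong to families of near-identical copies. Apolipoproteins and lipoprotein assembly genes held 0.847% ± 0.0562, led per kilobase by Apoa1 and Apoe (1811 ± 121 CPM), and 20 of 21 passed 1 CPM. The remaining one, Apoc2, was listed at 0 in all libraries, but 41.6% of its exon length overlaps another gene on the same strand, so its counts may have been set aside. Coagulation and fibrinolysis genes held 0.443% ± 0.0641 and all 22 passed 1 CPM, with the fibrinogen chains Fgb, Fga (539 ± 115 CPM) and Fgg (211 ± 16.6 CPM) and kininogen (Kng1, 373 ± 34.6 CPM) at the top, and prekallikrein (Klkb1, 1.3 ± 0.404 CPM) at the bottom. Complement genes held 0.255% ± 0.0250, led by C3 (1222 ± 155 CPM), and C6 alone lay under 1 CPM (0.894 ± 0.701). Among 19 acute-phase genes (0.404% ± 0.0171), lipocalin 2 (Lcn2), which binds bacterial iron carriers, reached 2153 ± 112 CPM, above Orm1 (263 ± 10.8 CPM) and Saa1 (285.5 ± 18.2 CPM), while the iron hormone hepcidin (Hamp) had 3.80 ± 2.37 CPM.

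Lipid synthesis genes were evenly present. All 26 genes of fatty acid and cholesterol synthesis lay at 10 CPM or more, 21 of them at 100 CPM or more, and together they held 0.842% ± 0.0364. Among the highest per kilobase were Hmgcs1 (731 ± 47.4 CPM) of cholesterol synthesis, the lipid droplet protein Plin2 (883 ± 51.4 CPM), the desaturase Scd1 (605 ± 42.7 CPM) and Nsdhl (237 ± 17.7 CPM). Fatty acid oxidation was split. Acadl (210.1 ± 15.0 CPM), Acads (88.9 ± 6.46), Acadm (159 ± 12) and Acadvl (84.2 ± 7.59), which carry out the first step of mitochondrial oxidation, were among the highest of the list. The fatty acid binding protein Fabp1 had 1.64 ± 0.742 CPM, and Fgf21 and Acot1 lay under 1 CPM.

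Other metabolic functions held few counts. In the glucose list (0.307% ± 0.0116), the glycolytic genes Ldha (827 ± 58.6 CPM), Aldoa (589.5 ± 22.1) and Gapdh (742 ± 30.6) led, and genes of glucose output and storage in liver lay under 1 CPM, among them Gys2 (0.451), G6pc1 (0.251) and Pck1 (0.148 CPM). Pck1 encodes the enzyme that commits to gluconeogenesis and G6pc1 the one that releases glucose. The urea cycle list held 0.153% ± 0.00405, of which Glud1 (929 ± 32.9 CPM), a glutamate dehydrogenase that most cells use, was the larger share. Ass1 (227 ± 11.2 CPM) and Asl (106 ± 5.03 CPM) of the cycle were present, Otc had 15.3 ± 2.09 CPM, and arginase (Arg1), its last enzyme, had 0.476 ± 0.317 CPM. None of 26 genes of amino acid breakdown reached 100 CPM, and Dpys, Hgd, Prodh2, Haao and Sds lay under 1 CPM. The target of D1 to D3, Hao1, a peroxisomal glycolate oxidase, belongs to this list and had 27.8 to 38.9 TMM-scaled CPM in the mock libraries.

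Bile acid genes were the lowest of the liver functions by median level. Cyp7a1 (0.0367 CPM), the rate-limiting enzyme of bile acid synthesis, and Cyp8b1 (0.0482 CPM) were at or under the limit that no count allows, and Nr0b2, Akr1d1, Slco1a4, Slco2b1 and Slco1b2 were under 1 CPM. The canalicular exporter Abcc2 was high in this list with 525.5 ± 46.9 CPM. Of 50 cytochrome P450 genes, 19 reached 10 CPM, 4 reached 100 CPM and 11 lay under 1 CPM. Per kilobase they were led by Cyp3a13 (214 ± 19.9 CPM), Cyp2c70 (154 ± 12.8), Cyp51 (330.5 ± 18), which serves cholesterol synthesis, and Cyp2c29 (132 ± 11.4). The aryl hydrocarbon receptor targets Cyp1a1 (0.192 CPM) and Cyp1b1 (no count) were near 0. The Cyp2c genes include near-identical copies, and levels of single members are uncertain. Of the conjugation genes, 32 of 41 lay at 10 CPM or more, with Aldh1a1 (2068 ± 143 CPM), catalase (Cat, 691 ± 68.2) and Ces1c (332.5 ± 19.4) at the top.

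The transcription factors that set the hepatocyte programme were present at low levels. Of 28, 26 passed 1 CPM and 4 passed 100 CPM. Hnf4a led per kilobase, followed by Cebpb (50.5 ± 7.19 CPM), Rxra (149 ± 8.22), Foxa3 (38.9 ± 2.36) and Onecut2 (278 ± 38.5 CPM). Cebpa, which represses growth in resting hepatocytes, had 18.4 ± 0.995 CPM. The drug sensor Nr1i3 (CAR, 0.224 ± 0.196 CPM) and the clock output factor Dbp (0.131 ± 0.294 CPM) were near 0. Zonation markers of both ends of the lobule were found side by side. Among pericentral genes, Cyp2c29, Lect2 (54.0 ± 6.34 CPM) and Glul (65.8 ± 2.99 CPM) were present while the Wnt targets Lgr5 (0.0990 CPM) and Axin2 (0.488 CPM) were near 0. Among periportal genes, Ass1, Cdh1 (170 ± 11.3 CPM) and Apof (56.5 ± 8.17 CPM) were present while Pck1, Sds and Arg1 were under 1 CPM.

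The list of genes of spread, cultured cells held more counts than any of the liver lists, which differ in their number of genes. Its most abundant members by CPM were Fn1 (8303), Krt18 (7066) and Krt8 (5306). The order of the lists without them was not computed, and no fresh liver was sequenced to compare their levels with. The 56 cytoskeleton and matrix genes held 5.21% ± 0.141 of the counts (SD, n = 8), from 5.07% in replicate 1 to 5.49% in replicate 8, and 35 of them lay at 100 CPM or more. Krt18, Krt8 and Actb led per kilobase, then the galectin Lgals1 (1224 ± 73.6 CPM) and Anxa2 (2957 ± 99.6 CPM). The intermediate filament vimentin (Vim), a gene of mesenchymal cells, had 1405 ± 153 CPM and the hyaluronan receptor Cd44 569 ± 56.5 CPM. The smooth muscle genes Tagln (0.987) and Myl9 (0.161), the fibroblast collagen Col1a1 (0.522), the laminin chain Lamb1 (0.473) and the mesenchymal factors Snai1 (0.0479) and Twist1 (0.0261 CPM) lay under 1 CPM. All 20 targets and partners of the growth regulators YAP and SRF passed 1 CPM, led by Ccn2 (935 ± 75.1 CPM), Ankrd1 (522 ± 29.7 CPM) and Ccn1 (308 ± 45.6 CPM).

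Cell division genes were transcribed. All 30 proliferation genes lay at 10 CPM or more, and 4 of them, Ccnd1 (455.5 ± 43.9 CPM), Mcm6 (192 ± 19.8), Mki67 (171.5 ± 20.7) and Top2a (129 ± 14.6), lay at 100 CPM or more. Together they held between 0.177% and 0.220% of the counts, with the highest shares in replicates 7 and 8. The brake Cdkn1a, a p53 target, was also present at 218 ± 10.1 CPM, whereas Cdkn2a had 0.0367 CPM. Genes of the fetal liver were mixed. Afp (38.9 ± 4.70 CPM), Igf2bp1 (43.6 ± 3.61) and Igf2bp3 (55.4 ± 1.97 CPM) were read in every library, while H19 (0.153), Dlk1 (0.0989), Lin28b (0.0879) and Gpc3 (0.109 CPM) were near 0 and Igf2 had no count.

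Stress genes were led by iron storage and redox genes. The 23 genes of oxidative and metal stress held 1.33% ± 0.0868, with Ftl1 (1453 ± 132 CPM), Fth1, Prdx1 (1880 ± 158), Txn1 (599.8 ± 37.3) and Sqstm1 (1921 ± 209.5 CPM) highest per kilobase, and with Gclc, which commits to glutathione synthesis, at 823 ± 89.9 CPM. The heat shock genes Hspa1a (4.17 ± 3.70 CPM) and Hspa1b (5.88 ± 4.16 CPM) were low and uneven. These copies share 65.5% of their 25-base words, so their counts are uncertain. In the unfolded protein list (0.501% ± 0.0260), the chaperones Hspa5 (1731 ± 126 CPM) and Hsp90b1 (1409 ± 108 CPM) led. Of 30 inflammation genes, 20 passed 1 CPM, led by the chemokines Ccl2 (241 ± 10.1 CPM), Cxcl1 (114 ± 12.3) and Cxcl16 (143 ± 5.88), and Il6, Il1b and Il1a had no count. Of 44 interferon-response genes, 41 passed 1 CPM and 10 passed 100 CPM, with Bst2 (231 ± 24.2 CPM) first per kilobase, while Ifnb1, which encodes interferon beta, had no count. The RNA interference effector Ago2 had 396 ± 14.3 CPM, and the receptor that takes up GalNAc-linked siRNAs was low in both subunits, with Asgr2 at 11.9 ± 1.37 CPM next to Asgr1.

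Most genes varied little between the 8 libraries once counting noise was removed. The measure is the coefficient of variation (CV) of CPM scaled by trimmed means (TMM), after the variance expected from counting was taken off, so that 0.25 means an SD of 0.25 of the mean between cultures. Over 9843 genes with a mean of at least 5 CPM, the median CV was 0.0630, and 143 genes (1.45%) exceeded 0.25. At a mean of at least 20 CPM, 15 of 7007 genes exceeded it. Gapdh, often used as a reference gene, had a CV of 0.0376, and its 8 values lay between 691 and 782 TMM-scaled CPM. In the liver lists the medians were low (plasma carriers 0.0552, urea cycle 0.0293), and in the proliferation list the median was 0.118. Among lists with more than 1 such gene it was highest for the interferon response, at 0.165, where 9 of 39 genes exceeded 0.25, against 1.45% of all genes. Since the genes were ranked on these 8 libraries, no test was made on them. The 24 siRNA groups gave an independent reading. Of the 25 genes with the highest CV in mock, 19 were in the top 5% (493 genes) for the CV within siRNA groups, and of the 25 highest at 20 CPM or more, 22 were. Low genes fill much of both ends of the ranking, since their CV is the less precise.

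**Figure D3:**
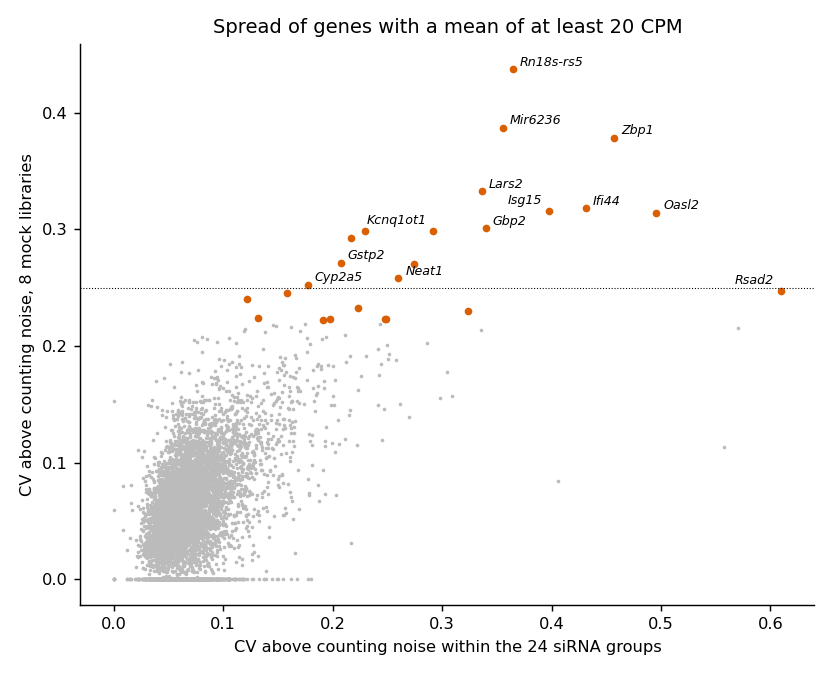
Coefficient of variation (CV) above counting noise of 7007 genes with a mean of at least 20 CPM. The x axis is the CV within the 24 siRNA groups of 4 libraries, the y axis the CV over the 8 mock libraries, and the dotted line is 0.25. Orange points are the 25 genes with the highest CV in mock, most of which also lie to the right. Rn18s-rs5 is highest in mock (0.437) and Rsad2 furthest to the right among the orange points (0.610).

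The first group of variable genes followed the ribosomal RNA copy Rn18s-rs5 (chromosome 17, 40157244 to 40159092, plus strand). Its TMM-scaled values in replicates 1 to 8 were 15291, 17563, 6762, 5672, 6522, 9291, 7674 and 11578 CPM, so replicates 1 and 2 were highest, followed by replicate 8. Mir6236, an annotated microRNA locus, had 548 and 561 CPM in replicates 1 and 2 against 204 to 357 in the others. Lars2, the mitochondrial leucyl-tRNA synthetase, had 1006 and 1067 CPM there against 445 to 685 in the others. Neither gene shares a 25-base word with Rn18s-rs5 in the annotation, but other ribosomal RNA sequences were not compared. Whether reads of ribosomal RNA were counted on either gene was not tested. Replicates 1 and 2 are also the libraries with the fewest counts, and the part of depth in this difference was not tested.

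A second group was low in 1 library. Kcnq1ot1, a long non-coding RNA that silences neighbouring genes on the paternal chromosome (chromosome 7, 142731402 to 142850327, minus strand), had 15.98 CPM in replicate 8 and 41.7 to 62.7 CPM in the other 7. Neat1, the scaffold of nuclear paraspeckles, had 124 CPM in replicate 8 and 185 to 306 in the others. Malat1, also retained in the nucleus, had 1586 CPM in replicate 8 and 2276 to 3082 in the others, at a CV of 0.191. Vmn1r43 (8.85 against 14.6 to 28.3 CPM) and the non-coding F730043M19Rik (8.85 against 16.8 to 29.1 CPM) were lowest in the same library, which also had the highest Krt8 (6106 against 4901 to 5420 CPM). Kcnq1ot1 lies antisense to Kcnq1, and the strand setting of the counting is not given in the sources used here, so its reads could include those of its partner.

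Interferon-response genes formed the third group. Interferon, or foreign RNA sensed in the cytosol, switches these genes on through response elements in their promoters. Zbp1, a sensor of Z-form nucleic acid, had 45.0 and 45.2 CPM in replicates 1 and 5, 13.96 in replicate 3 and 20.6 to 31.2 in the other 5. Isg15, a ubiquitin-like modifier, had 55.5 and 65.3 CPM in replicates 1 and 5 and 26.6 to 54.7 in the others. Ifi44 (46.2 and 44.3 against 19.4 to 33.1), Oasl2 (48.5 and 54.0 against 20.7 to 41.6) and the GTPase Gbp2 (32.5 and 31.6 against 13.1 to 22) were likewise highest in replicates 1 and 5. The antiviral genes Rsad2 (101 and 115 against 58.5 to 79.8) and Oas2 (14.8 and 10.7 against 3.17 to 7.04) shared the order, and Ifit3 was highest in replicate 5 (16.7 CPM) and lowest in replicate 3 (3.38 CPM). The whole list held 0.328% and 0.337% of the counts in replicates 1 and 5, 0.241% in replicate 3 and 0.253% to 0.292% in the other 5. In the 96 siRNA libraries its share lay between 0.184% and 0.603%, a range that holds all 8 mock values.

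Of these 8 genes, 6 have a promoter window in RefSeq (250 bases before to 50 after the start, build GRCm38.p6), and 4 of those hold the interferon-stimulated response element (GAAA, 2 bases of any kind, GAAA) before the start on either strand. Counted over the whole window, the part after the start included, the element stands in 18 of 33 list genes with an entry (54.5%). By the same count it stands in 3.99% of all 27025 genes with a window, each gene counted once however many matches it had. The matches are shown because these 4 genes are among the variable interferon genes and all 4 were high in replicate 5, and they are sequence matches only. Capitals mark the element, in the gene's 5′ to 3′ direction.
Isg15 (chr4:156200871-156200900, minus strand): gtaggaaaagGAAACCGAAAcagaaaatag
Gbp2 (chr3:142620594-142620623, plus strand): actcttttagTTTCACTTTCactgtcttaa
Ifit3 (chr19:34583363-34583392, plus strand): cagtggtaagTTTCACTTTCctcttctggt
Rsad2 (chr12:26456553-26456582, minus strand): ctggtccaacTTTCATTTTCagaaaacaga
In Isg15 the element reads in the gene's direction, and in the other 3 it lies on the opposite strand. Ifi44 and Oasl2 have a window without a match before the start.

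The last group came from the liver's own products. No gene of at least 5 CPM in the coagulation or plasma carrier list had a CV over 0.25, and Serpinf2 had 0.223. Serpina7, which is in neither list, was among the 25 genes with the highest CV (0.360, mean 9.22 CPM). It had 14.4 and 13.1 CPM in replicates 5 and 6 and 4.15 to 11.3 in the others. Fga and Fgb were added after their values were seen. Others of the 25 genes with the highest CV, such as Dancr, Stra6l and Dok4, were placed in no group. Fgb had 2393 and 2652 CPM in replicates 5 and 6 and 1511 to 2014 in the others, and Fga had 693 and 732 CPM against 430.3 to 583. The remaining fibrinogen chain, Fgg, did not share this, with 225 and 216 CPM against 177 to 227. Serpinf2, the plasmin inhibitor, had 97.3 and 102 CPM against 53.5 to 81.6. The share of the plasma carrier list was also highest in replicates 5 and 6 (3.67% and 3.60%, against 3.11% to 3.42%). Hspa1b had the highest CV of all 9843 genes (0.682), with 11.04 and 12.9 CPM in replicates 1 and 2 and 0.837 to 6.98 in the others.

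**Figure D4:**
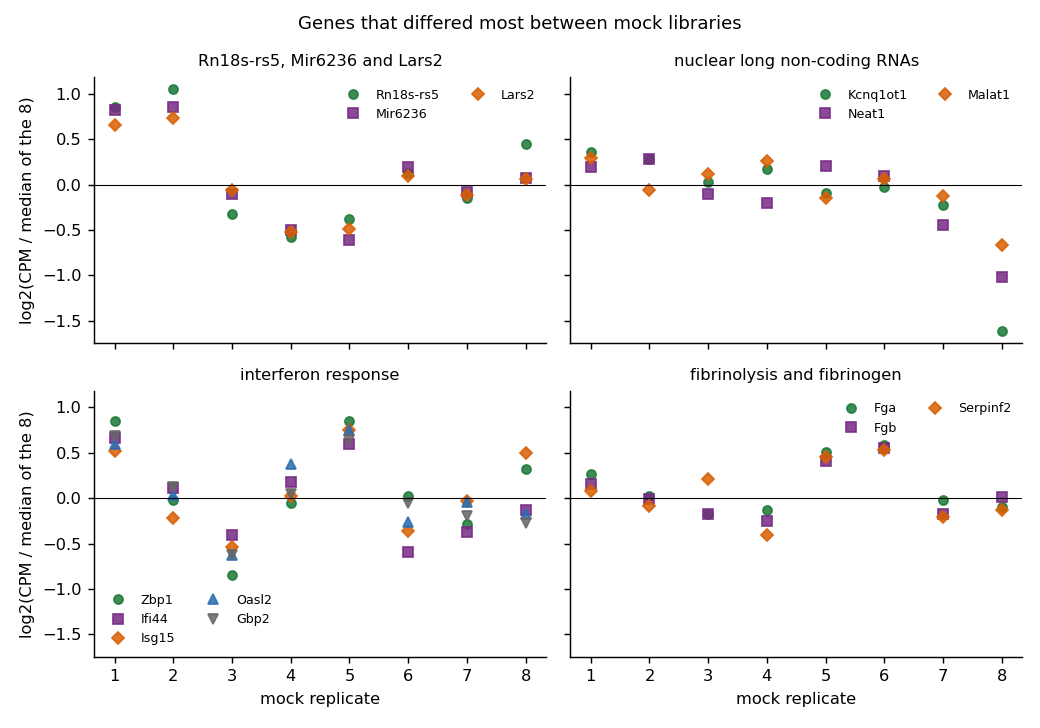
Log2 ratio of TMM-scaled CPM to the median of the 8 mock libraries, by replicate, for 4 groups of genes with a high CV (Malat1, Fga and Fgb were added to their groups after their values were seen). Replicates 1 and 2 are high for Rn18s-rs5, Mir6236 and Lars2, replicate 8 is low for the 3 nuclear RNAs, replicates 1 and 5 are high for interferon genes and replicates 5 and 6 for fibrinogen and plasmin inhibitor genes. Replicate numbers follow the order of the samples in the series, and the labels do not say what that order stands for.

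At the lowest dose, few single genes passed the test between siRNA-treated and mock cultures. Against mock, the mean of the 6 siRNAs at 0.1 nM differed at an adjusted p under 0.05 for 2 of 11644 genes in edgeR's quasi-likelihood test, both lower with siRNA (0.0172% of genes) and none higher (0%). At an unadjusted p under 0.05 there were 1066. The 2 genes are the targets. Ttr had 536 to 715 CPM in mock and 1.16 to 668 CPM with siRNA (log2 fold change −3.34 ± 0.224 SE, edgeR adjusted p = 2.85e-10). Hao1 had 27.8 to 38.6 CPM in mock and 3.74 to 35.0 CPM with siRNA (−0.92 ± 0.0776, edgeR adjusted p = 1.46e-12). Each gene is targeted by 3 of the 6 siRNAs, so the fold is a mean over cultures with and without an siRNA against it. Both genes lay below the mock mean in all 6 groups, those without an siRNA against them included. Of the 24 libraries, 12 lay below all mock libraries for Ttr and 16 for Hao1. At 50 nM, Hao1 was again below the mock mean in all 6 groups, with 22 of 24 libraries below all mock libraries. Why Hao1 was lower in groups given siRNAs against Ttr was not tested. F12 (0.06) and Gapdh (0.00) did not pass the test on the log2 scale, with edgeR adjusted p of 0.785 and 0.993. None of the interferon genes passed in this fit, but all 41 tested lay below mock, with a median log2 fold change of −0.26, against 50.8% of all genes below mock and a median of −0.0018. Some passed in other fits, namely Ifi44 and Rigi, both lower with siRNA, in DESeq2, Rigi or Stat2 in the second run alone, with the replicate block and without mock replicate 3, mock replicate 8 or siRNA replicate 3, and 8 of the list when all genes with a count were kept. Isg15 averaged 42.6 CPM in mock and 27.6 with siRNA at this dose, and Rigi, the sensor of short double-stranded RNA, 173 and 144 CPM. Mock replicates 1 and 5, high for these genes, are part of the mock average, and their share in the difference was not tested. The 26 lipid synthesis genes tested all lay above mock, at a median of only 0.09, and none passed. Genes of 1 list can move together between libraries, as several interferon genes did, so these signs are not separate observations.

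At the highest dose many genes differed. Against mock, 3155 of 11727 genes passed at 50 nM (edgeR, adjusted p under 0.05), 1802 lower with siRNA (15.4%) and 1353 higher (11.5%), and the median over all genes was −0.01. All 6 siRNAs have a target in these cells and no untargeted siRNA was used here. The mean over siRNAs does not separate the presence of siRNA from the loss of Hao1 or Ttr. At 0.1 nM, Ttr had a log2 fold change of −3.34, 2 genes passed and the proliferation list had a median of −0.07. At 50 nM, Ube2c and Ccnb1 lay below all mock libraries in 24 of 24 libraries, over all 6 siRNAs. The cause of the difference from mock was not tested. Repression through the guide's seed, a short stretch that can pair with other mRNAs, may also be part of this mean and was not tested. The paper reports such repression for the parents D1 and D4, less of it for D6, and a strong reduction for D2, D3 and D5. The mock cultures transcribed cell division genes at the higher level. Of 30 proliferation genes, 27 were lower with siRNA and none higher, with a median log2 fold change of −0.88. Mki67, a marker of cycling cells, had 146 to 207 CPM in mock and 41.0 to 142 CPM at 50 nM, so the groups did not overlap (−0.94 ± 0.0849, edgeR adjusted p = 2.29e-09). Cyclin B1 (Ccnb1) had 17.6 to 30.4 CPM in mock and 3.51 to 15.8 CPM (−1.28 ± 0.110, edgeR adjusted p = 2.3e-13), and Ube2c, which tags mitotic proteins for decay, 26.3 to 46.6 and 4.05 to 24.7 CPM (−1.31 ± 0.0924, edgeR adjusted p = 3.82e-15). Ccnd1 (0.09), Mcm3 (−0.11) and Cdt1 (−0.07) did not pass. Beside the targets, Ube2c and Ccnb1, the 12 largest falls held Cdc25c, Pif1, Prr11 and Depdc1a of the cell cycle, the cornified envelope gene Ivl, Selenbp2, Layn and Ltbp2. For Ltbp2 the siRNAs were split, with 3 of 6 groups below the mock mean, 9 libraries below all mock libraries and 3 above.

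The largest rise with siRNA was that of Itgb4, an integrin of hemidesmosomes (chromosome 11, 115865333 to 115899239, plus strand). It had 2.33 to 5.56 CPM in mock and 5.71 to 84.2 CPM in the 24 libraries at 50 nM, with no overlap (2.19 ± 0.133, edgeR adjusted p = 2.05e-19). Epcam, an adhesion protein of bile duct and progenitor cells, had 0.585 to 2.82 CPM in mock and 2.18 to 18.2 CPM, and 23 of 24 libraries lay above all mock libraries (2.08 ± 0.182). The claudins Cldn6 (1.40) and Cldn23 (1.52), the membrane protease St14 (1.39), and Epha1, Cds1, Nckap5, Usp43, Il17rd, Rcan2 and Dennd2d complete the 12 largest rises. For Cldn6, 14 of 24 libraries lay above all mock libraries. Several of these were near 1 CPM in mock, and their folds are imprecise. Of 10 bile duct markers tested, 4 rose (Krt19, Cldn4, Krt7 and Epcam) and none fell, against 11.5% of all genes higher and 15.4% lower. All 10 lay above mock with a median of 0.29, against a median of −0.01 over all genes.

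Liver products differed by small folds. The counts below stand against 15.4% of all genes lower and 11.5% higher. Of 25 plasma carriers, 14 were higher at 50 nM and 1, the target Ttr, lower in the mean over siRNAs, at a list median of 0.11. For Ttr, 12 libraries lay below all mock libraries and 12 above, with 3 of 6 groups below the mock mean. Ahsg (fetuin A) had the largest rise, at 829 CPM in mock and 1406 CPM with siRNA (0.75 ± 0.0566). Alb rose by 0.18 ± 0.0297, from 13378 to 15135 CPM. In the acute-phase list 12 of 19 rose and 2, Il1rn and Crp, fell, at a median of 0.14. Of 26 hepatocyte transcription factors, 6 fell, most of all Onecut2 (278 to 176 CPM, −0.73 ± 0.0542), and Ppara alone rose. Of 51 cytoskeleton genes tested, 13 fell and 16 rose, at a median of 0.01. The basement membrane collagens Col4a2 (1.03 ± 0.0420) and Col4a1 (0.73 ± 0.0391) rose, whereas Actb (−0.26 ± 0.0356) and Tubb6 (−0.52 ± 0.0455) fell. The interferon genes had 1 lower (Trim25) and 3 higher (Rsad2, Tap1 and Psmb9) of 43, and Gapdh fell by 0.12 on the log2 scale. The 2 dose comparisons share the same 8 mock libraries and are given side by side only.

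**Figure D5:**
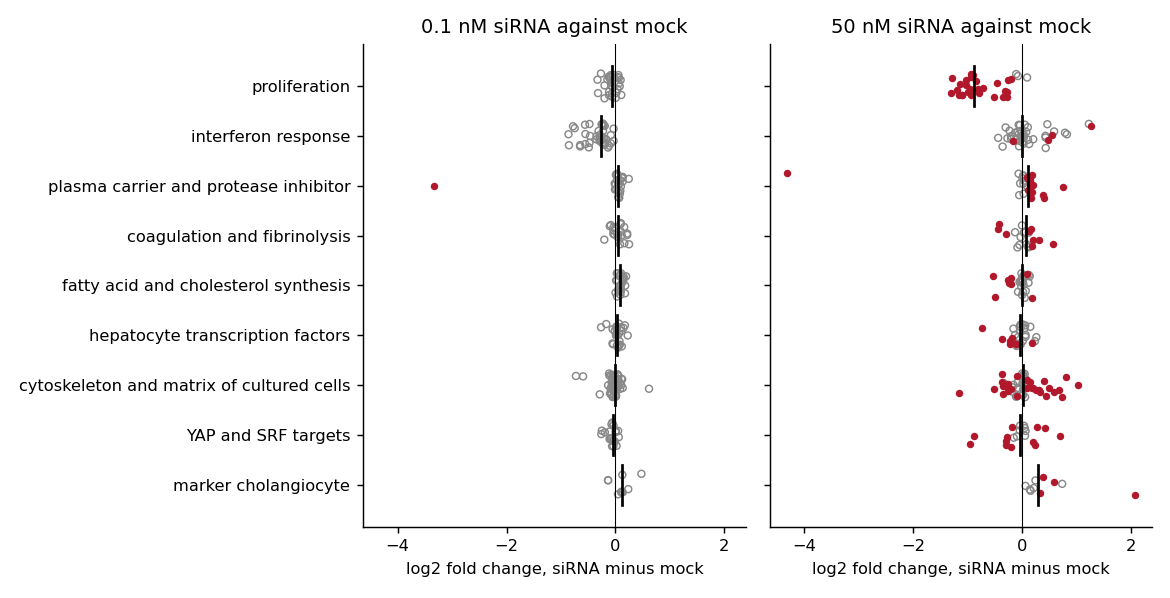
Log2 fold change of list genes, mean of the 6 siRNA groups minus mock, at 0.1 nM (left) and 50 nM (right). Each circle is a gene, red filled circles passed edgeR's test at an adjusted p under 0.05, and black bars are list medians. The amino acid list, which holds Hao1, is not plotted. At 0.1 nM only Ttr of the lists plotted, far to the left, is filled and the interferon genes lie left of 0, while at 50 nM the proliferation genes lie around −0.88.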

How the data were processed

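RNA was captured on beads and sequenced from total-RNA libraries (TruSeq Stranded) of 104 cultures, 8 of them mock. The authors aligned reads to GRCm39 with STAR and deposited raw gene counts from featureCounts 2.0.2, in 2 runs per library. Their DESeq2 1.32.0 tables hold the authors' own comparisons and were not used. The strand setting and annotation are not given in the sources used here. The runs were summed, 92 ERCC rows were left out, and CPM were computed over 55416 genes, 54749 of them matched to GENCODE on GRCm39. The members and the 38 gene lists were chosen with earlier results of these data known. Genes named were drawn from the 20 highest by CPM and per kilobase and from list members highest per kilobase (up to 5) or under 1 CPM. They were also drawn from the 25 with the highest CV, not all of which are named, and from the 12 largest changes each way. Hao1, Ttr, F12 and Gapdh were named as well. Other list members, and genes with a CV outside the 25, were chosen after their values were seen. Contrasts used edgeR 4.0.16 in R 4.3.3 (TMM, filterByExpr, robust quasi-likelihood fit), with Benjamini-Hochberg adjustment, and were tested on simulated data. Counting intervals and limits cover counting error only. Alternatives were DESeq2 1.42.0, RLE scaling, no filter, each run alone, the replicate number as a block, other CPM minima, no mitochondrial genes and libraries left out. Some list members are not reported here.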

Additional observations from a re-analysis of the deposited data

Results flagged for a closer look

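In 106 sets of 8 mock values (library measures, list shares and the most abundant or most variable genes), 5 had 1 library far from the other 7 by Dixon's gap test, and chance flags about 1 in 20 such sets. Kcnq1ot1 had 15.98 TMM-scaled CPM in replicate 8 against 41.7 to 62.7 in the others. Krt8 had 6023 CPM in the same library against 4902 to 5410. Ifit3 had 16.7 TMM-scaled CPM in replicate 5 against 3.38 to 9.43. Dok4, an adaptor of receptor tyrosine kinases, had 12.7 TMM-scaled CPM in replicate 3 against 4.07 to 7.17. The female-biased liver genes held 0.00149% of the counts in replicate 3 against 0.00207% to 0.00259%, at levels of a few counts per gene.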

How the results depend on the processing

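Of the summary values, 520 recomputations stayed close to the value given and 18 moved. Without mitochondrial genes, shares rose slightly with the smaller total, to 0.158% for the urea cycle, 5.37% for cytoskeleton genes, 0.256% for immediate early genes, 0.177% for p53 targets, 0.0864% for fetal genes, 0.105% for inflammation and 0.176% for siRNA machinery, and the 20 most abundant of the remaining genes held 10.9%. The number of genes with a CV over 0.25 was 853 from 1 CPM up, 40 from 10 CPM and 15 from 20 CPM, 263 and 284 in the first and second run alone, and 136 to 179 with 1 mock library left out; without replicates 1 and 2 together, a choice made after seeing the data, it was 181. At 0.1 nM, 70 genes passed with all genes kept and 4 in the second run. With the replicate number as a block, which assumes pairs that the data do not bear out (correlations of same-numbered deviations from −0.18 to 0.32), 12 passed at 0.1 nM and 2399 at 50 nM. The count ranged from 2 to 6 with 1 library or siRNA replicate number left out, and was 6 without siRNA replicate 1 and 6 without replicate 3. DESeq2 called 3 genes at 0.1 nM, Hao1 and the interferon genes Ifi44 and Rigi, and gave no adjusted p for Ttr. At 50 nM the count with 1 library or siRNA replicate number left out ranged from 2593 to 3591, and it was 2415 and 2355 in the single runs, and the block ended the call of Cldn23 (1.21), Depdc1a (−0.88) and Gapdh (−0.10) among named genes. The cause of these shifts was not tested. Low counts limit genes near 1 CPM most.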
